A study of Mus musculus with 10 samples.

Results

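Immediate early genes are the genes that a cell transcribes first after a stimulus, before any new protein has to be made. Of the 31 immediate early and AP-1 genes considered here, 30 were measured in HSCs of 18-month-old mice, out of 22180 genes in all. They are a list of symbols, chosen with earlier results of these data known and matched to the platform annotation by symbol alone. Each was read by the probe set of its own with the highest mean over the arrays. Fosl1 shares its probe set with another gene in that annotation and was not analysed here. HSCs came from 5 AHR-KO mice, which carry an Ahr knockout in every cell type, and from 5 WT mice with wild-type Ahr, all on the C57BL/6J strain. Each mouse was profiled on an Affymetrix Mouse Gene 2.0 ST array of its own. SLAM+ cells (Lin-CD48-CD150+) were taken from lineage-depleted marrow and frozen in RNAlater, and their RNA was extracted later and amplified, so that marrow handling came before every measurement. The labels name no treatment and give no sex. Because the knockout is global, marrow stromal cells lack AHR as well, and the model does not separate a loss within HSCs from a loss around them.

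AP-1 is a dimer of a FOS protein with a JUN protein, or of JUN proteins with each other or with ATF and MAF relatives, and it binds DNA through a basic leucine zipper. Its genes are switched on within minutes by mitogens, cytokines, calcium and stress, through MAP kinases that act on serum response factor and CREB at their promoters. The same signals induce their own brakes, such as the DUSP phosphatases that inactivate MAP kinases and the ZFP36 proteins that mark short-lived mRNAs for decay. In blood cells, FOS, JUN, EGR1 and their relatives are also known to be induced by tissue dissociation and cell sorting, while EGR1, BTG2, KLF2 and KLF4 are associated with quiescence or with myeloid differentiation.

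Promoter sequence was available from RefSeq (GRCm38.p6) for 25 of the 31 genes. Within the 250 bases before the transcription start, a short form of the cAMP response element, TGACG, was found on either strand in 13 of these 25 promoters and in 17.8% of the 27025 gene promoters in the table. The full element TGACGTCA occurred in 2 of them, Btg2 and Dusp1 (1.6% of all promoters). It contains the short form on each strand. The core of the AHR response element, GCGTG, occurred in 12 of the 25 (28.3% of all), and the CArG box that serum response factor binds in 2, Dusp5 and Zfp36 (1.41%). A loose form of the AP-1 site, TGANTCA with any base in the middle, occurred in 1, Zfp36l1 (6.85%), where it reads TGATTCA. A match describes these letters only and is not evidence of binding. The 5 promoters below belong to genes whose values are described next, namely Fos and Junb, the member with the highest correlation with it over the 10 arrays, Fosb and Klf4, which were high in different arrays, and Dusp5. Capitals mark every match to the short element, the AHR core, the CArG box or the loose AP-1 form on either strand, and each sequence runs 5′ to 3′ up to the base before the start.
Fos, chr12:85473640-85473889, plus strand: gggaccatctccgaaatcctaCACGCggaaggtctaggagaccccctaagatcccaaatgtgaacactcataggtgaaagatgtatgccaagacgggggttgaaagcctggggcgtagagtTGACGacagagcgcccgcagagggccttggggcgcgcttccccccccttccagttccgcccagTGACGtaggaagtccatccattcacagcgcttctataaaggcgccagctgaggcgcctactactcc
Fosb, chr7:19310046-19310295, minus strand: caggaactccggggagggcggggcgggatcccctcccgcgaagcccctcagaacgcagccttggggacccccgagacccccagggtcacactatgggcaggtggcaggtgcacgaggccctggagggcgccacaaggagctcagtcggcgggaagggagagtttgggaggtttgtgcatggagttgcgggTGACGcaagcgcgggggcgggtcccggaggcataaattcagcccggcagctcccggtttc
Junb, chr8:84978749-84978998, minus strand: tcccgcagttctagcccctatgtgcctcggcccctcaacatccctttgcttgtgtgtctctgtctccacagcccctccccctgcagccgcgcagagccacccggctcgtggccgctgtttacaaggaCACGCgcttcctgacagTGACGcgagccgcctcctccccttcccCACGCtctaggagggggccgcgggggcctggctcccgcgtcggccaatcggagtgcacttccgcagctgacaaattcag
Dusp5, chr19:53528895-53529144, plus strand: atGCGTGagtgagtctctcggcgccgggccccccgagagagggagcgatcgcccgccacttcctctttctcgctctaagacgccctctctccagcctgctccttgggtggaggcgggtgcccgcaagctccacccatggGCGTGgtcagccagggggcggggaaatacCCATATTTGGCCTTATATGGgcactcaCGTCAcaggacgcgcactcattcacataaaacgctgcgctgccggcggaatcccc
Klf4, chr4:55532476-55532725, minus strand: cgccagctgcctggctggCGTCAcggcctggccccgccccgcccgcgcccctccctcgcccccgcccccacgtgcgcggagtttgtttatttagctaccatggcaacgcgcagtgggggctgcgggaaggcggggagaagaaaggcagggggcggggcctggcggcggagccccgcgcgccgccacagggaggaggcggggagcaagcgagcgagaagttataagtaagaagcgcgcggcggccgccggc
The short element nearest to the start ended 62 bases before it in Fos, 56 in Fosb, 102 in Junb, 51 in Dusp5 and 228 in Klf4. Fos, Junb and Dusp5 also hold the AHR core. The Dusp5 window has 2 adjoining CArG boxes.

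Signals were deposited on a linear scale with a median of 24.65 in every array, and the values given here are log2(signal + 16). The added 16 makes the fold change of a dim gene smaller than that of its signals. Any 2 arrays correlated at 0.924 to 0.980 over all genes. Ahr itself, the targeted gene, lay between 5.17 and 6.52 in AHR-KO arrays and between 4.70 and 6.78 in WT arrays. Which exons the allele lacks is not stated, and the array may read exons that remain, so the Ahr values cannot serve as a check of genotype. Of 25 measured HSC identity genes 24 had a mean signal above the median gene (36.3), Kit, Hlf, Mecom and Procr among them. Their summed signals were 5066 to 12109 in AHR-KO arrays and 7438 to 11791 in WT arrays. By genotype 22 of the 25 had a lower mean in AHR-KO, with a median log2 fold change of -0.25, and 8 of 9 erythroid markers had a higher one, with a median of 0.49, although none of either list had an unadjusted p under 0.05 in limma. Genes of other marrow cells were also read. Neutrophil markers were above the median gene in 14 of 15 cases, with summed signals of 4511 to 31047 in AHR-KO arrays and 6704 to 17356 in WT arrays. The monocyte, macrophage and dendritic cell markers were above it in 16 of 21, with sums of 5005 to 13986 in AHR-KO and 6859 to 12781 in WT. The highest mean signal was 967 (Hlf) among HSC identity genes and 4214 (Mpo) among neutrophil markers. Among monocyte, macrophage and dendritic cell markers it was 3055 (Ly6c2). Of 10 markers of mast cells and basophils 9 were lower in AHR-KO, 3 of them past the study threshold defined next (0.343% of all genes were, as lower). Sums of the 10 were 2276 to 4225 in AHR-KO and 3528 to 5845 in WT, and Tpsb2 among them stayed at or below a signal of 8.80. Of 12 markers of marrow stroma and endothelium 5 were higher and 7 lower in AHR-KO, 1 each way past that threshold (0.18% of all genes as higher and 0.343% as lower). Their sums were 540 to 3093 in AHR-KO and 1002 to 4087 in WT. Arrays also fell into 2 sets along the first principal component (30.6% of the variance over all genes). AHR-KO replicates 1 and 2 stood with WT replicates 1 and 5, and the remaining 6 arrays stood together. The sets come from the data and not from the labels.

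No immediate early or AP-1 gene differed between AHR-KO and WT past the study threshold, taken here as a fold of 1.5 or more at p under 0.05 before adjustment (0.523% of all genes did, and 0.343% as lower). At an unadjusted p under 0.05 alone there was 1 of 30, Ier2, and it was lower in AHR-KO (3.74% of all genes passed in either direction 1.81% as higher and 1.93% as lower). That share is near the share of all genes. No member passed an adjusted p under 0.05, nor did any of the 22180 genes in limma, of which 830 had an unadjusted p under 0.05. In the direction of their means 12 members were higher and 18 lower in AHR-KO, with a median log2 fold change of -0.03, beside 0.004 for all genes. In no member did the AHR-KO and WT arrays separate without overlap (0.681% of all genes did, 0.347% with AHR-KO above WT). The score of an array, the mean log2 deviation of the 30 genes from their means over the arrays, averaged -0.03 ± 0.13 over AHR-KO arrays and 0.03 ± 0.12 over WT arrays (SD, n = 5 each). The highest score, 0.18, was that of WT replicate 2 and the lowest, -0.17, that of AHR-KO replicate 5. So the genes as a group differed between genotypes by less than the spread between mice. Mean signals of Fosb, Egr3, Dusp5, Atf3, Nr4a2 and Maff lay below that of the median gene, where a signal may be background. This is bulk RNA, where fewer cells of a type and less RNA per cell cannot be told apart.

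**Figure D1:**
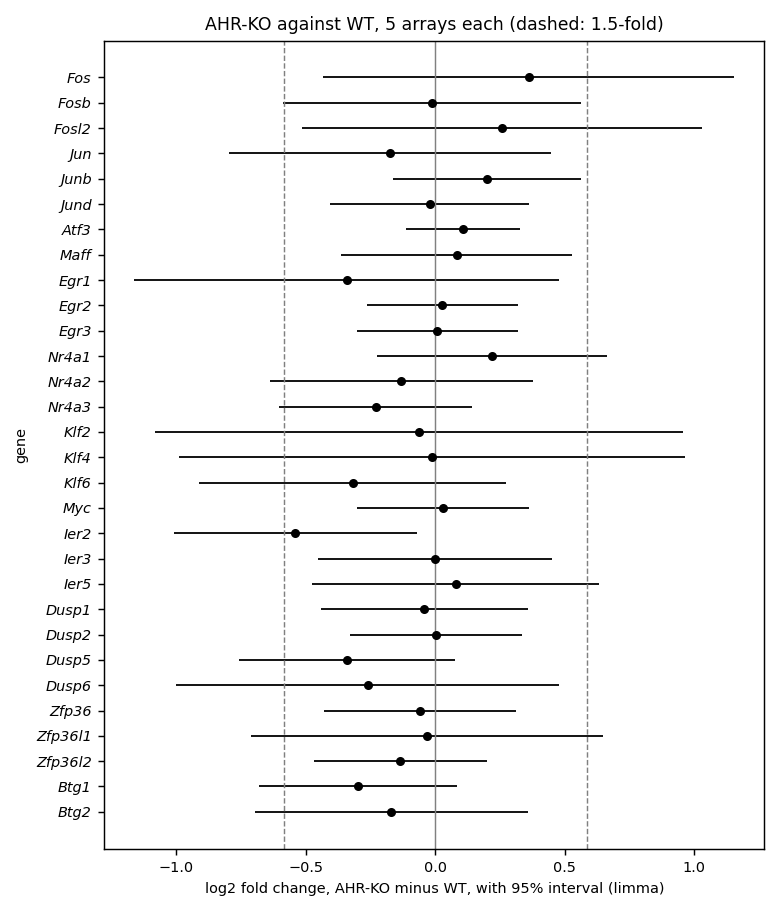
Log2 fold change, AHR-KO minus WT, of the 30 genes (points) with the 95% interval from limma (bars), grouped by role from top to bottom, with dashed lines at 1.5-fold. The interval lies wholly on one side of 0 for Ier2 alone.

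Ier2, a nuclear protein gene of the fast response to growth factors, had log2 values of 5.86, 7.17, 6.16, 6.53 and 6.31 in AHR-KO arrays, against 7.03, 7.16, 6.74, 6.69 and 7.11 in WT arrays. AHR-KO replicate 2 was as high as the highest WT arrays, and the other AHR-KO arrays all lay below every WT array. The means were 6.41 ± 0.49 in AHR-KO and 6.95 ± 0.21 in WT (SD, n = 5 each), a log2 fold change of -0.54 (standard error 0.21), or 1.45-fold lower in AHR-KO (unadjusted p = 0.0275 and adjusted p = 0.998 from limma). The exact permutation test gave a two-sided p = 0.0635, where 5 arrays against 5 can reach 0.00794. Ier2 no longer had an unadjusted p under 0.05 in limma when 1 array was left out from AHR-KO, be it replicate 1 (-0.40), 3 (-0.48) or 5 (-0.51), or 1 from WT, be it replicate 1 (-0.52), 2 (-0.49) or 5 (-0.50). With AHR-KO replicate 2 left out Ier2 did pass the study threshold (-0.73), as it did with WT replicate 3 (-0.59) or 4 (-0.60) left out. Neutrophil markers were higher in AHR-KO in 11 of 15 cases and T and NK cell markers in 8 of 10. Their median log2 fold changes were 0.17 and 0.30, and none had an unadjusted p under 0.05 in limma. The part of these, of the lower HSC identity, mast cell and basophil markers and of the higher erythroid markers in the Ier2 value was not tested. Its relatives by name differed less. Ier3, an early gene that acts on survival under stress, averaged 7.37 ± 0.41 in AHR-KO and 7.37 ± 0.31 in WT (SD, n = 5 each). Ier5, an early gene of the heat shock and radiation response, averaged 6.03 ± 0.52 in AHR-KO and 5.95 ± 0.38 in WT (SD, n = 5 each), and AHR-KO replicate 5 was far below the rest of its group at 5.14.

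No gene of the FOS family differed between AHR-KO and WT beyond the spread between mice. Fos, the prototype immediate early gene, had log2 values of 5.25, 6.29, 5.94, 5.85 and 5.75 in AHR-KO arrays, against 6.02, 6.24, 5.70, 5.31 and 4.0 in WT arrays. WT replicate 5 was alone at 4.0, which is where a signal near zero falls on this scale (its signal was 0.00248), and the other 9 arrays lay between 5.25 and 6.29. The difference of the means, 5.82 ± 0.38 in AHR-KO and 5.45 ± 0.89 in WT (SD, n = 5 each), rested on that array, since the log2 fold change was 0.36 with it (95% interval -0.43 to 1.16 from limma) and -0.0027 without it. Fosb, a close paralog of Fos, had 5.22, 5.49, 4.43, 4.60 and 4.66 in AHR-KO arrays, against 5.47, 5.00, 4.28, 4.47 and 5.23 in WT arrays. It was high, at 5.22 to 5.49, in the 4 arrays that the first component sets apart, and lower, at 4.28 to 5.00, in the other 6. Fosl2, a FOS relative induced later and held longer, ran the other way, with 7.09, 7.66, 8.26, 8.13 and 8.76 in AHR-KO arrays, against 6.85, 8.29, 8.06, 8.28 and 7.12 in WT arrays. It was 6.85 to 7.66 in those 4 arrays and 8.06 to 8.76 in the other 6, with AHR-KO and WT arrays in each set.

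Of the JUN family, Jun, the main dimer partner of FOS, averaged 6.04 ± 0.57 in AHR-KO and 6.21 ± 0.47 in WT (SD, n = 5 each). Junb, a JUN relative that restrains myeloid proliferation in mice, had 7.06, 7.45, 7.24, 7.40 and 7.26 in AHR-KO arrays, against 7.54, 7.34, 7.01, 6.68 and 6.84 in WT arrays. Its log2 fold change of 0.20 had a 95% interval of -0.16 to 0.56 from limma, and the groups overlapped. Jund, the JUN gene that resting cells transcribe, averaged 7.88 ± 0.37 in AHR-KO and 7.90 ± 0.19 in WT (SD, n = 5 each). Atf3, a stress-induced partner of AP-1, ranged from 5.31 to 5.71 over all 10 arrays, and Maff, a small MAF protein gene without an activation domain of its own, from 4.93 to 6.00. The other dimer partners and inhibitors of AP-1, 13 of 14 listed genes such as Batf, Jdp2 and Atf2, had log2 fold changes of -0.38 to 0.24, and none had an unadjusted p under 0.05.

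**Figure D2:**
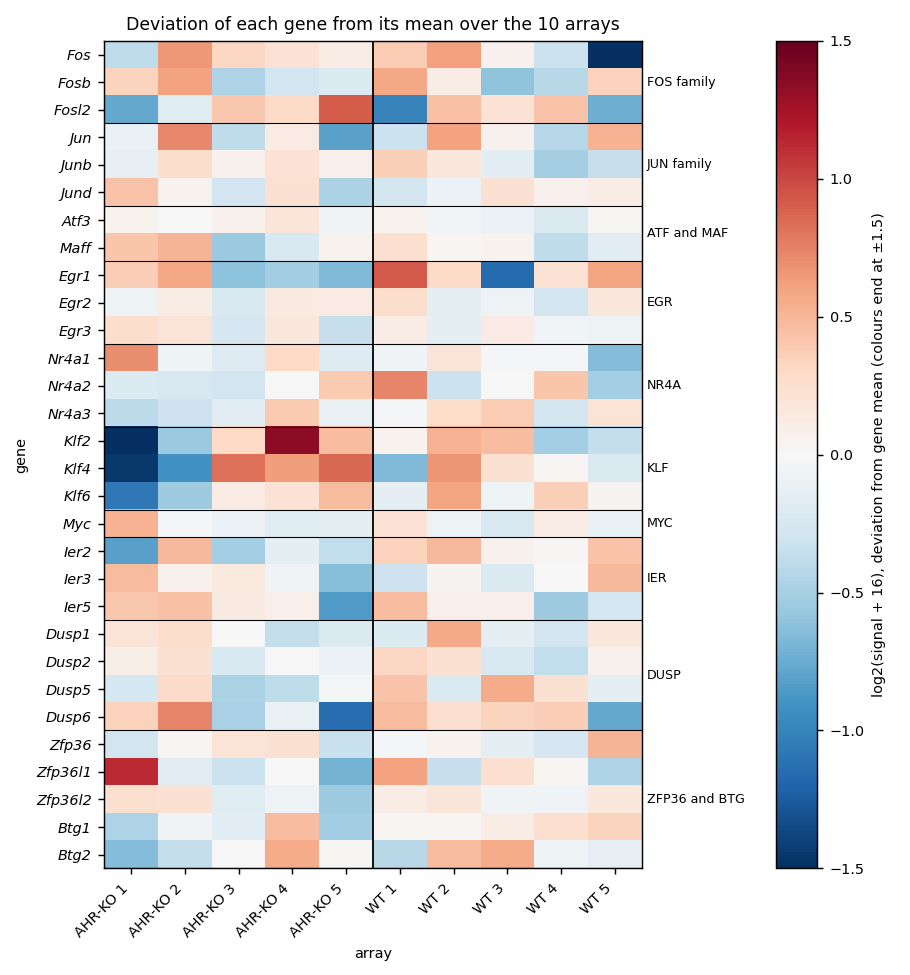
Deviation of log2(signal + 16) from the mean of each gene over the 10 arrays (colour), with genes grouped by role in rows and arrays in columns, AHR-KO left of WT. Klf2, Klf4 and Klf6 are lowest in AHR-KO replicate 1, while Egr1 and Fosb are high in the 4 arrays set apart by the first component.

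Among the zinc finger genes, Egr1, a serum-induced factor that is known to hold mouse HSCs in quiescence and in the niche, had log2 values of 7.48, 7.70, 6.50, 6.59 and 6.45 in AHR-KO arrays, against 8.04, 7.40, 5.96, 7.33 and 7.71 in WT arrays. The AHR-KO arrays fell into a high pair and 3 arrays near 6.5, and WT replicate 3 was the lowest of all. The log2 fold change was -0.34 (standard error 0.38), and it passed the study threshold as lower in AHR-KO only when WT replicate 3 was left out (-0.67). Egr1 was 7.48 to 8.04 in the 4 arrays set apart and 5.96 to 7.40 in the other 6. Egr2 and Egr3, relatives that limit lymphocyte activation, spanned only 1.46-fold and 1.53-fold over the 10 arrays. The NR4A orphan receptors, which restrain HSC proliferation and myeloid leukemia in mice, had log2 fold changes of 0.22 for Nr4a1, -0.13 for Nr4a2 and -0.23 for Nr4a3, all with intervals that include 0. Myc, the growth regulator, averaged 9.85 ± 0.29 in AHR-KO and 9.82 ± 0.18 in WT (SD, n = 5 each).

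Klf2 and Klf4 had the widest spread of the 30 genes by the SD within groups, pooled over both genotypes. Their SDs were 1.16 and 1.09 in AHR-KO but 0.47 and 0.49 in WT. Among WT arrays Fos (0.89), Egr1 (0.80) and Fosl2 (0.69), among others, had a wider spread. Klf2, a quiescence factor of lymphocytes and endothelium, had 4.41, 5.58, 6.43, 7.47 and 6.60 in AHR-KO arrays, against 6.18, 6.65, 6.59, 5.62 and 5.77 in WT arrays. AHR-KO held both the lowest array, replicate 1, and the highest, replicate 4. The signal in AHR-KO replicate 1 was 5.30, below the median of the array, so the size of the Klf2 range depends on the added 16. Klf4, a factor of monocyte differentiation, had 5.84, 6.38, 8.12, 7.91 and 8.15 in AHR-KO arrays, against 6.62, 7.95, 7.51, 7.30 and 7.07 in WT arrays. It was 5.84 to 7.07 in the 4 arrays set apart and 7.30 to 8.15 in the other 6. Klf6, an injury-response factor, ranged from 6.51 to 8.05 in AHR-KO and from 7.44 to 8.17 in WT. AHR-KO replicate 1, lowest in all 3 KLF genes, also had the lowest neutrophil score (-1.52) and the lowest monocyte, macrophage and dendritic cell score (-0.80). It was lowest as well for mast cells and basophils (-0.73), T and NK cells (-0.61) and marrow stroma and endothelium (-0.79). Its erythroid score was the highest (1.14). AHR-KO replicate 4, highest in Klf2, had the highest neutrophil (1.83), monocyte, macrophage and dendritic cell (0.46) and T and NK cell (1.22) scores. Marrow stroma and endothelium scores were -0.79 to -0.24 in the 4 arrays set apart and -0.04 to 0.71 in the other 6. In the same order, neutrophil scores were -1.52 to -0.28 and -0.08 to 1.83. Monocyte, macrophage and dendritic cell scores were -0.80 to -0.22 and 0.10 to 0.46, and megakaryocyte scores 0.21 to 0.37 and -0.40 to 0.18. Scores of mast cells and basophils, erythroid cells, B cells, and T and NK cells overlapped between the sets. HSC identity scores were 0.14 to 0.54 in the 4 arrays with low Klf4 and high Egr1, and -0.62 to 0.01 in the other 6. The part of other marrow cells in the KLF, Egr1 and Fosb values was not tested.

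**Figure D3:**
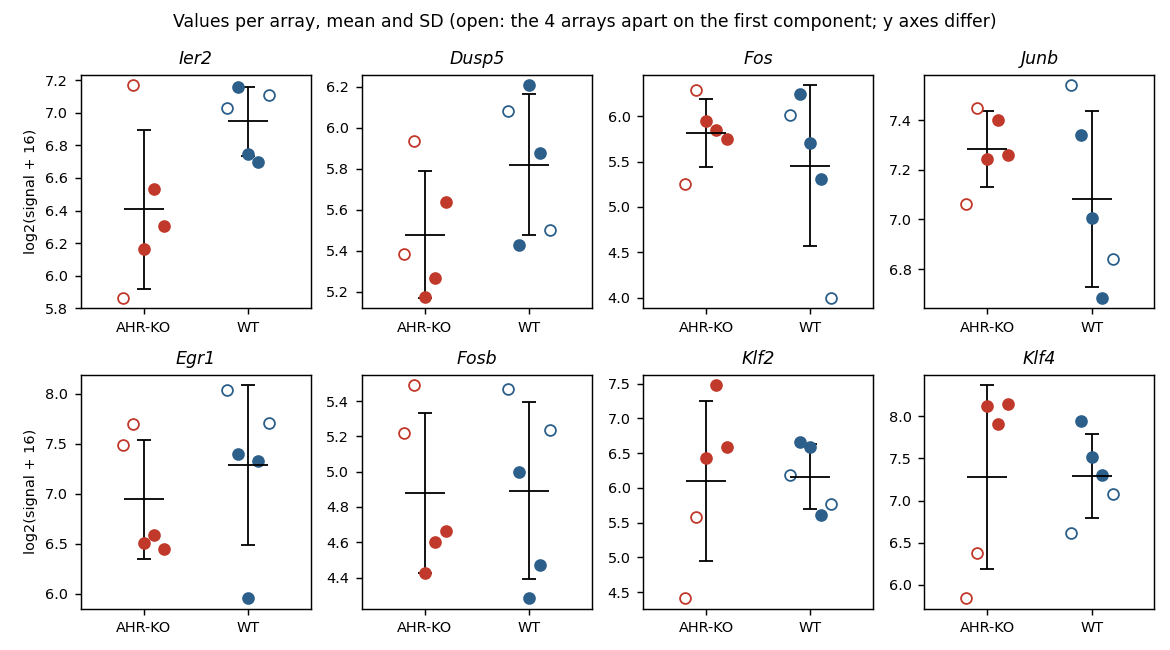
Log2(signal + 16) of 8 genes in each AHR-KO array (left) and WT array (right), with the mean and SD of each group as bars and open circles for the 4 arrays set apart by the first component. Open circles are high for Egr1 and Fosb and low for Klf4 in AHR-KO and WT alike, and 4 of 5 AHR-KO arrays of Ier2 lie below all WT arrays.

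The feedback genes did not differ beyond the spread between mice over all 10 arrays. Dusp5, a nuclear phosphatase specific for ERK, had 5.38, 5.93, 5.18, 5.27 and 5.64 in AHR-KO arrays, against 6.08, 5.43, 6.21, 5.88 and 5.50 in WT arrays. Its log2 fold change was -0.34 (standard error 0.19, unadjusted p = 0.100 from limma, exact permutation test two-sided p = 0.135), and its p fell under 0.05 without AHR-KO replicate 2 (-0.45) or WT replicate 2 (-0.44). Dusp6, a cytoplasmic ERK phosphatase, had 9.32, 9.71, 8.49, 8.88 and 7.83 in AHR-KO arrays, against 9.45, 9.23, 9.31, 9.34 and 8.21 in WT arrays. AHR-KO replicate 5 and WT replicate 5 were low, the second of them far below its group. Within the 6 arrays alone Dusp6 was lower in AHR-KO, at a log2 fold change of -0.89 (unadjusted p = 0.00419 and adjusted p = 0.557 from limma), and within the other 4 the sign was opposite (0.69). Ier2 had -0.53 within the 6 arrays (unadjusted p = 0.0111 and adjusted p = 0.557 from limma). Within the other 4 it had -0.55 (unadjusted p = 0.276 and adjusted p = 0.937 from limma). Klf4 was higher in AHR-KO within the 6 arrays (0.47, unadjusted p = 0.0272 and adjusted p = 0.568 from limma). Klf6 was lower within the other 4 (-0.75, unadjusted p = 0.0352 and adjusted p = 0.937 from limma). At an unadjusted p under 0.05 within the 6 arrays, 1 member was higher and 2 lower, beside 1012 and 891 of all 22180 genes. Within the other 4 arrays 0 members were higher and 1 lower, beside 440 and 500 of all genes. Over all 10 arrays it was 402 and 428 of all genes. The sets were drawn from these same values, so the p-values within them are a description and no test of genotype. Dusp1 and Dusp2, phosphatases of stress kinases and ERK, had log2 fold changes of -0.04 and 0.0039. Among the mRNA decay genes, Zfp36, Zfp36l1 and Zfp36l2 had -0.06, -0.03 and -0.13, and the antiproliferative genes Btg1 and Btg2 had -0.30 and -0.17. Btg1 had an unadjusted p under 0.05 without AHR-KO replicate 4 (-0.45). Btg2 was 6.40 to 6.93 in the 4 arrays set apart and 6.97 to 7.61 in the other 6.

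Over the 30 genes, then, 3 (Fosl2, Klf4 and Btg2) were higher in every one of the 6 arrays than in the other 4, and 2 (Egr1 and Fosb) were lower in every one. Of all genes, 3.8% showed the first pattern and 3.46% the second. The arrays were grouped by their values, so these counts are a description with no test. The spread within genotypes was wide for part of the genes. The pooled SD within groups had a median of 0.36 over the 30 genes and of 0.26 over all genes, and 8 of the 30 (26.7%) lay in the top 10% of genes of similar level (all genes cut into 10 bins by mean signal), namely Klf2 (SD 0.88), Klf4 (0.84), Egr1 (0.70), Fos (0.68), Fosl2 (0.66), Dusp6 (0.63), Zfp36l1 (0.58) and Fosb (0.48). Among these 8, Zfp36l1, an mRNA decay factor, was highest in AHR-KO replicate 1 (9.39) and lowest in AHR-KO replicate 5 (7.56). The SDs of Klf2, Fos and Fosb include arrays with a signal below the array median. At the other end Atf3 had an SD of 0.10, against a median of 0.27 among genes of similar level. Its mean signal of 30.2 lay below that of the median gene (36.3), where the added 16 narrows the spread of every gene. The genes with a wide spread were high in different arrays, and no array was high in all of them. AHR-KO replicate 2, for instance, had the highest Fos (6.29), Jun (6.85), Ier2 (7.17) and Dusp6 (9.71) of all arrays, and yet a Klf4 of 6.38 and a Klf2 of 5.58, below 8 of the other 9 arrays in both.

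**Figure D4:**
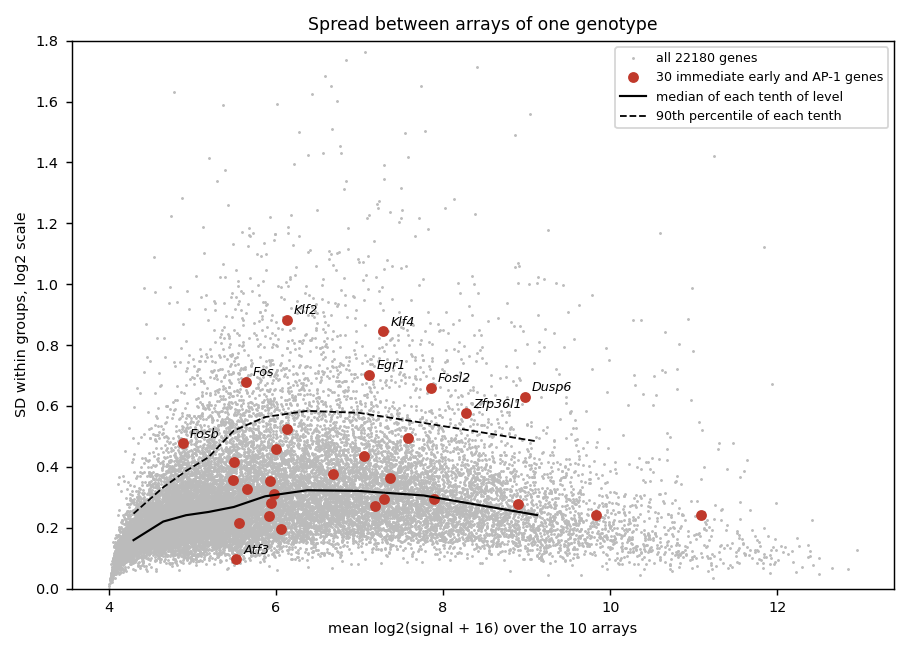
Pooled SD of log2(signal + 16) within AHR-KO and WT arrays against the mean level of each gene, for all 22180 genes (grey) and the 30 immediate early and AP-1 genes (red), with the median (solid) and 90th percentile (dashed) of each of 10 bins of level. The 8 named genes above the dashed line had SDs of 0.48 to 0.88, and Atf3 had 0.10. Genes with an SD beyond the axis are not drawn.

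Genes upstream and beside this response were read in the same fit. Of 14 measured kinases of the MAP kinase cascade and 12 serum response and CREB factors, none passed an unadjusted p of 0.05 in limma. Log2 fold changes were -0.24 to 0.33 in the cascade and -0.28 to 0.26 among the factors. Of 28 other early response genes 9 were higher and 19 lower in AHR-KO, and their median log2 fold change was -0.09. Of the lower, 2 had an unadjusted p under 0.05 in limma (1.93% of all genes did as lower). Ppp1r15a, or GADD34, which reverses the block of translation under stress, was the 1 gene of the 28 past the study threshold, lower in AHR-KO (0.343% of all genes were). It had 6.70, 7.38, 6.52, 6.69 and 6.09 in AHR-KO arrays, against 8.03, 7.12, 7.08, 7.32 and 7.65 in WT arrays. AHR-KO replicate 2 was again the highest AHR-KO array, and the other 4 lay below all WT arrays. Its log2 fold change was -0.77 (standard error 0.24), which is 1.70-fold lower in AHR-KO (unadjusted p = 0.00833 and adjusted p = 0.998 from limma, exact permutation test two-sided p = 0.0317). It stayed past the study threshold with any array left out, at -0.94 to -0.62, but not with a pseudocount of 64 (-0.56). Within the 6 arrays the log2 fold change was -0.74 and within the other 4 it was -0.80, again as a description. Heat shock genes listed for cell dissociation, 12 of 16 measured, had none below an unadjusted p of 0.05, and their score was -0.14 to 0.05 in AHR-KO arrays and -0.17 to 0.23 in WT arrays. Of these 12, 9 had a mean signal above the median gene (36.3), with Hspa8 the highest at 4645. Hspa1a (7.6), Hspa1b (14.8) and Hspb1 (26.2) lay below it, where a signal may be background, so the score reads those genes poorly. No array was highest in both the heat shock and the immediate early score: WT replicate 1 had 0.23 and 0.11, and WT replicate 2 had -0.17 and 0.18. Heat shock scores were 0.03 to 0.23 in the 4 arrays set apart and -0.17 to 0.02 in the other 6. Immediate early scores overlapped, at -0.09 to 0.11 and -0.17 to 0.18. Without overlap were also MAP kinase cascade scores (-0.16 to -0.06 and -0.02 to 0.26) and those of the AP-1 partners (-0.32 to -0.10 and 0.03 to 0.30). The cause was not tested.

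**Figure D5:**
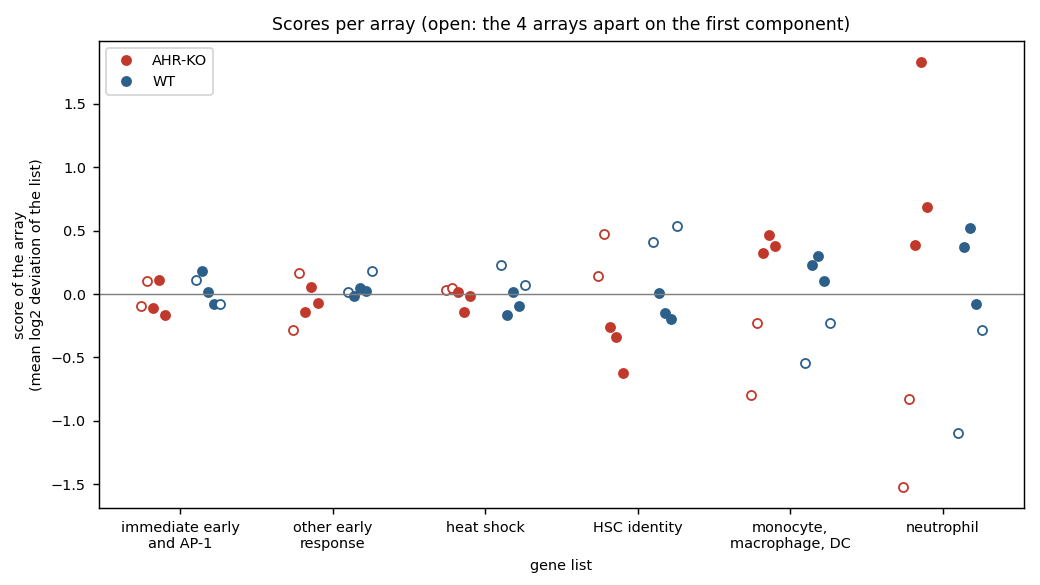
Score of each array (mean log2 deviation of the genes of a list from their means) for 6 gene lists, AHR-KO left of WT, with open circles for the 4 arrays set apart by the first component. Immediate early scores stay within -0.17 to 0.18, while neutrophil scores run from -1.52 to 1.83.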

How the data were processed

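The deposited values are intensities on a linear scale, 1 for each probe set on each array. Affymetrix Expression Console is the tool in the submitters' processing notes. For microarrays the paper's methods state the IterPLIER algorithm, background subtraction and normalization of quantiles, without saying whether these arrays are included, and no version or filter was found. Such normalization removes any shift common to most genes. The number of arrays limits the precision.
The platform annotation gave 1 gene symbol to 23521 of 41345 probe sets, several to 1820 and none to 16004. Where a gene had more probe sets (1082 genes), the one with the highest mean signal stood for it, which gave 22180 genes with no filter on level. Gene IDs of 21994 were in the GRCm38.p6 gene table, with 0 symbols changed.
The intensities, as log2(signal + 16), were fitted with limma 3.58.1 (lmFit, eBayes) in R 4.3.3, AHR-KO minus WT, with Benjamini-Hochberg adjustment over all genes and exact permutation tests of single genes. On simulated data with independent genes of the same means and spreads, 22180 in number, the fit called 67 of 100 with a log2 change of 1 and 98 of 100 with a log2 change of 2 at an adjusted p under 0.05, with 14 false calls. The paper's methods set limits on fold and p and state an adjustment for multiple comparisons without naming it. The study threshold used here takes the same fold with the unadjusted p.
The genes, lists, tests and alternatives were chosen with earlier results of these data known. All members were to be named, and from each other pathway list up to 4 genes past the study threshold. The alternatives concerned the pseudocount, a filter on level, averaged probe sets, repeated quantile normalization, the methods' t-test, a trended and robust spread, array weights, folds of linear means, blocks for replicate number or array set, fits within array sets, and leaving out each array.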

Additional observations from a re-analysis of the deposited data

Results flagged for a closer look

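In 3 of 62 groups of 5 arrays, each gene and the score taken in AHR-KO and in WT, 1 array stood far from the rest by Dixon's limit. Chance alone gives about 1 in 20 groups, which is the share seen here. AHR-KO replicate 5 had an Ier5 value of 5.14, where the other AHR-KO arrays had 6.07 to 6.43. WT replicate 5 had a Dusp6 value of 8.21, where the other WT arrays had 9.23 to 9.45. AHR-KO replicate 1 had a Myc value of 10.35, where the other AHR-KO arrays had 9.66 to 9.80.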

How the results depend on the processing

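The count of members past the study threshold, 0 over all 10 arrays, was 1 with a pseudocount of 1 (Ier2), 1 with array weights (Dusp6), 1 within the 6 arrays (Dusp6) and 1 within the other 4 (Klf6, the fit within the 4 arrays being chosen after seeing the data), and 0 to 2 with 1 array left out. The count at an unadjusted p under 0.05, which was 1, was 0 with the methods' t-test, 3 with array weights (Dusp5, Dusp6 and Ier2), 3 within the 6 arrays (Dusp6, Ier2 and Klf4) and 0 to 3 with 1 array left out, the 3 being Btg1, Ier2 and Nr4a3 without AHR-KO replicate 4. The count at an adjusted p under 0.05 was 0 under each alternative run. Of the 29 pairs with Fos 0 passed in each setting, and the count of genes with a wide spread was 7 to 8. With the replicate number as a block the count at an unadjusted p under 0.05 was 1. Same-numbered deviations correlated at -0.20 to 0.35, and 3 of 10 arrays correlated best with their own number. Whether the numbers pair the arrays was not tested. Over all genes 40 were higher and 76 lower past the study threshold, against 243 and 331 with a pseudocount of 1 and 2 and 14 with 64. These counts were 36 and 97 with array weights, 148 and 183 within the 6 arrays and 395 and 450 within the other 4. At an unadjusted p under 0.05 alone, 402 genes were higher and 428 lower over all 10 arrays. With array weights there were 692 and 686, and within the 6 arrays 1012 and 891.
The direction held in 9 of the 30 genes under all the alternatives run and turned in 21, most of them with differences near 0. Log2 fold changes on the other side of 0 were those of Egr3 (-0.00062), Fosb (0.038) and Ier3 (-0.0020) with a pseudocount of 1, and of Dusp2 (-0.0017), Klf2 (0.036) and Klf4 (0.040) with 64. With folds of linear means they were those of Dusp2 (-0.016), Jund (0.0050), Klf2 (0.26), Klf4 (0.22) and Zfp36l1 (0.063). With array weights they were those of Dusp2 (-0.036), Egr3 (-0.087), Klf2 (0.17), Klf4 (0.29), Maff (-0.15), Myc (-0.013) and Zfp36 (0.091). Within the 6 arrays they were those of Egr3 (-0.13), Ier3 (-0.12), Ier5 (-0.083), Klf2 (0.55), Klf4 (0.47), Maff (-0.14), Myc (-0.072), Nr4a1 (-0.079), Nr4a2 (0.0060) and Zfp36 (0.15). Within the other 4 they were those of Atf3 (-0.0037), Dusp1 (0.25), Dusp2 (-0.028), Dusp6 (0.69), Egr2 (-0.20), Fosb (0.00075), Jun (0.22), Jund (0.32), Zfp36l1 (0.41) and Zfp36l2 (0.10). With 1 array left out the log2 fold changes of the genes that turned ran from -0.12 to 0.095 for Dusp1, -0.088 to 0.083 for Dusp2, -0.040 to 0.096 for Egr2, -0.055 to 0.097 for Egr3, -0.0027 to 0.56 for Fos, -0.16 to 0.13 for Fosb, -0.12 to 0.16 for Ier3, -0.045 to 0.30 for Ier5, -0.38 to 0.0058 for Jun, -0.13 to 0.094 for Jund, -0.41 to 0.36 for Klf2, -0.23 to 0.35 for Klf4, -0.035 to 0.23 for Maff, -0.096 to 0.089 for Myc, -0.27 to 0.038 for Nr4a2, -0.13 to 0.060 for Zfp36 and -0.31 to 0.14 for Zfp36l1. The cause was not tested. The filter on level left 24 of the 30 genes.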

Other observations

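Levels of Fos were compared with those of each of the other 29 genes over the 10 arrays. Junb had the highest r over the 10 arrays, with Pearson's r = 0.74 (permutation p = 0.00981, Benjamini-Hochberg adjusted p = 0.284 over the 29 pairs) and Spearman's rho = 0.83 (permutation p = 0.0048, adjusted p = 0.139). Neither passed after adjustment, and none of the 29 pairs did with Pearson's r. Without WT replicate 5 and AHR-KO replicate 1, the 2 arrays farthest from the median of Fos, r was 0.84, and within the 6 arrays it was 0.85. Junb was not alone there. Dusp2 had r = 0.22 and rho = 0.50 over the 10 arrays (permutation p = 0.569 and 0.144), but r = 0.84 without those 2 and 0.85 within the 6. Without the same 2 arrays r was 0.75 for Dusp1 and 0.70 for Fosb, against 0.06 and -0.05 over all 10. Jun had r = -0.04 and rho = 0.32 with Fos (permutation p = 0.914 and 0.369), and r was 0.67 without those 2. Other pairs went the other way. Without those 2 arrays r was -0.50 for Nr4a2, -0.36 for Fosl2 and -0.35 for Klf6, against 0.28, 0.37 and 0.11 over all 10. Within the 6 arrays Nr4a2 had r = -0.84 (permutation p = 0.0208), where Junb had a permutation p of 0.0319. Of the 29 pairs 18 had a positive r and 11 a negative r, with a median of 0.06.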
